A study of Mus musculus with 12 samples.

Results

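The genes described here are 9 that serve the housekeeping functions of astrocytes: the glutamate transporters Slc1a2 and Slc1a3, glutamine synthetase Glul, the water channel Aqp4, the gap junction genes Gja1 and Gjb6, the metabolic enzymes Aldoc and Aldh1l1, and the calcium-binding protein S100b. They were chosen by name and make up 9 of the 55573 genes in the count table. All 9 were among the 14008 genes that passed the filter on low values and were tested. RNA was taken from the whole right hippocampus of 12 mice on a C57BL/6J background at 4.5 months of age, 1 library per mouse. The mice were APP/PS1 (APPSwe/Ps1dE9), 4 females and 4 males, or wild type (WT), 2 females and 2 males. WT mice carry no transgene. The APP/PS1 line is a model of Alzheimer's disease with a pair of transgenes expressed from prion promoter sequence, 1 for a partly humanised APP with disease mutations and 1 for a human presenilin from which an exon is deleted. The libraries were of polyadenylated RNA from whole tissue, so a level per library is a mixture of all cell types, and fewer astrocytes and less RNA per astrocyte cannot be told apart.

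Astrocytes take up the glutamate that neurons release, convert it to glutamine and hand the glutamine back to neurons. Their endfeet on blood vessels carry water and potassium channels, gap junctions join them into networks, and they make lactate from glucose. In disease models astrocytes near amyloid plaques become reactive, a state known for a rise of Gfap and other genes. The comparison asked whether the RNA of the homeostatic genes also differed between APP/PS1 and WT hippocampus, in either sex.

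In no comparison did any of the 9 genes pass an FDR of 0.1 (edgeR's quasi-likelihood test with Benjamini-Hochberg adjustment over all 14008 genes). With the effects of both sexes averaged, 0 of 9 were called, where 1.9% of all genes tested were. The counts were also 0 of 9 in females, against 0.771% of all genes, and 0 of 9 in males, against 0.171%. The difference of the genotype effect between the sexes was called for 0 of 9 and for 0% of all genes. At an unadjusted p under 0.05 the averaged comparison held 2 members, Glul and Gjb6, where 9.57% of all genes lay under it. The females held 0 members against 9.79% of all genes, the males 2 (Glul and Gjb6 again) against 5.7%, and the interaction 1 (Glul) against 4.03%. The median log2 fold change of the members was -0.028 averaged, -0.0080 in females and -0.027 in males, beside 0.0096, 0.012 and 0.0053 over all genes tested. Of the 9 averaged changes 7 were below 0 and 2 above.

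These tests had the precision to bound the changes. The standard errors of the members' averaged log2 fold changes ran from 0.042 to 0.17, beside a median of 0.068 over all genes tested. The 95% confidence intervals of all 9 averaged changes lay within a 2-fold change in either direction, as did those for each sex. For 7 of 9 genes the averaged interval lay within 0.5 on the log2 scale, and the exceptions were Aqp4 and Gjb6.

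**Figure D1:**
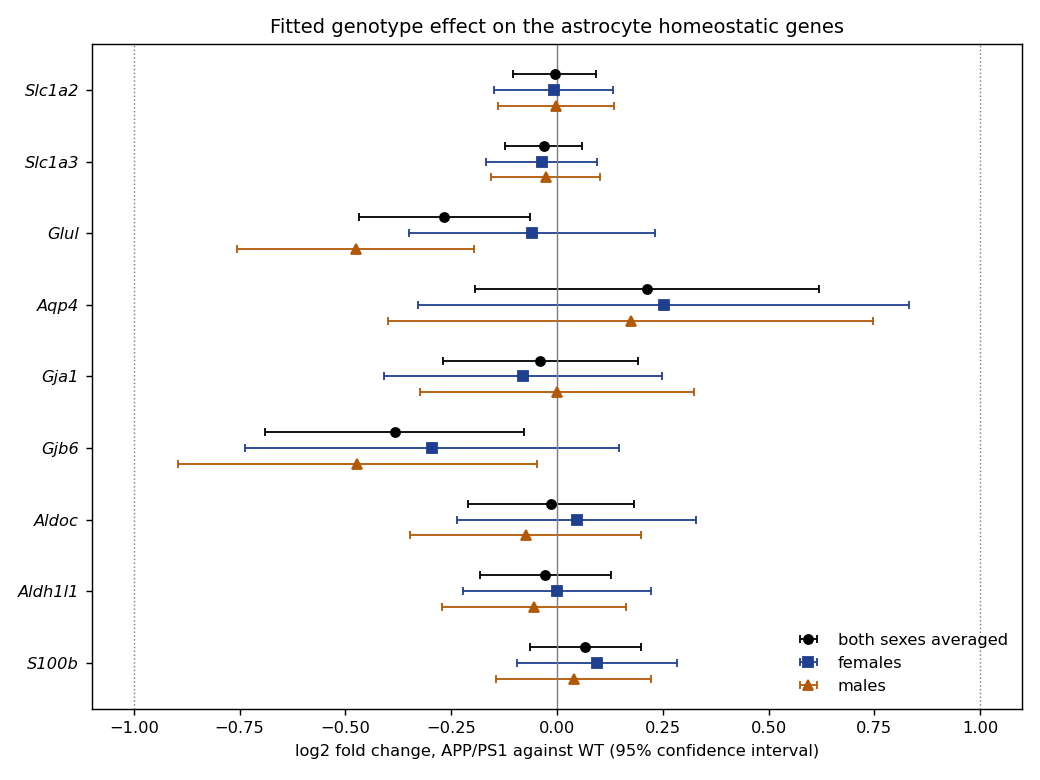
Fitted log2 fold change of each homeostatic gene in APP/PS1 against WT hippocampus, with 95% confidence intervals, for both sexes averaged and for each sex, and dotted lines at a 2-fold change. The intervals of Slc1a2 and Slc1a3 are the narrowest around 0, and those of Glul and Gjb6 lie below 0 for the averaged effect and in males.

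In all 12 libraries the sex-linked genes matched the labelled sex, and markers of hippocampal subfields were present in each, with Prox1 at 87.3 to 134, Wfs1 at 107 to 184 and Spink8 at 15.6 to 27.2 normalized CPM (CPM, counts scaled to a common library size with upper-quartile factors). Libraries held between 36714316 and 50643565 counts on genes. In 3 of them, the first APP/PS1 female, the second APP/PS1 male and the second WT female, transcripts of the choroid plexus were abundant, with Ttr at 3530 to 6362 normalized CPM against 2.69 to 18.3 in the other 9.

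The 9 genes covered a wide range of levels. Per kilobase of exon, median levels over the 12 libraries were 337 normalized CPM per kb for Glul, 237 for Slc1a2, 218 for Aldoc, 82.5 for S100b, 77.1 for Slc1a3, 36.8 for Aqp4, 24.3 for Gja1, 22.5 for Gjb6 and 9.08 for Aldh1l1. Glul stood at the 99.6th percentile of all genes tested and Aldh1l1 at the 63.4th. Neighbours in this order whose ranges over the libraries overlapped were Slc1a2 and Aldoc, S100b and Slc1a3, Aqp4 and Gja1, and Gja1 and Gjb6, so the order within these pairs does not hold beyond the spread. The lowest count of any member in any library was that of Aldh1l1, 1260, in the first WT male. The spread between animals over all 12 libraries, as a coefficient of variation, was 3.72% for Slc1a3, 5.20% for Slc1a2, 9.33% for S100b, 15.7% for Glul, 17.6% for Aqp4 and 19.8% for Gjb6.

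**Figure D2:**
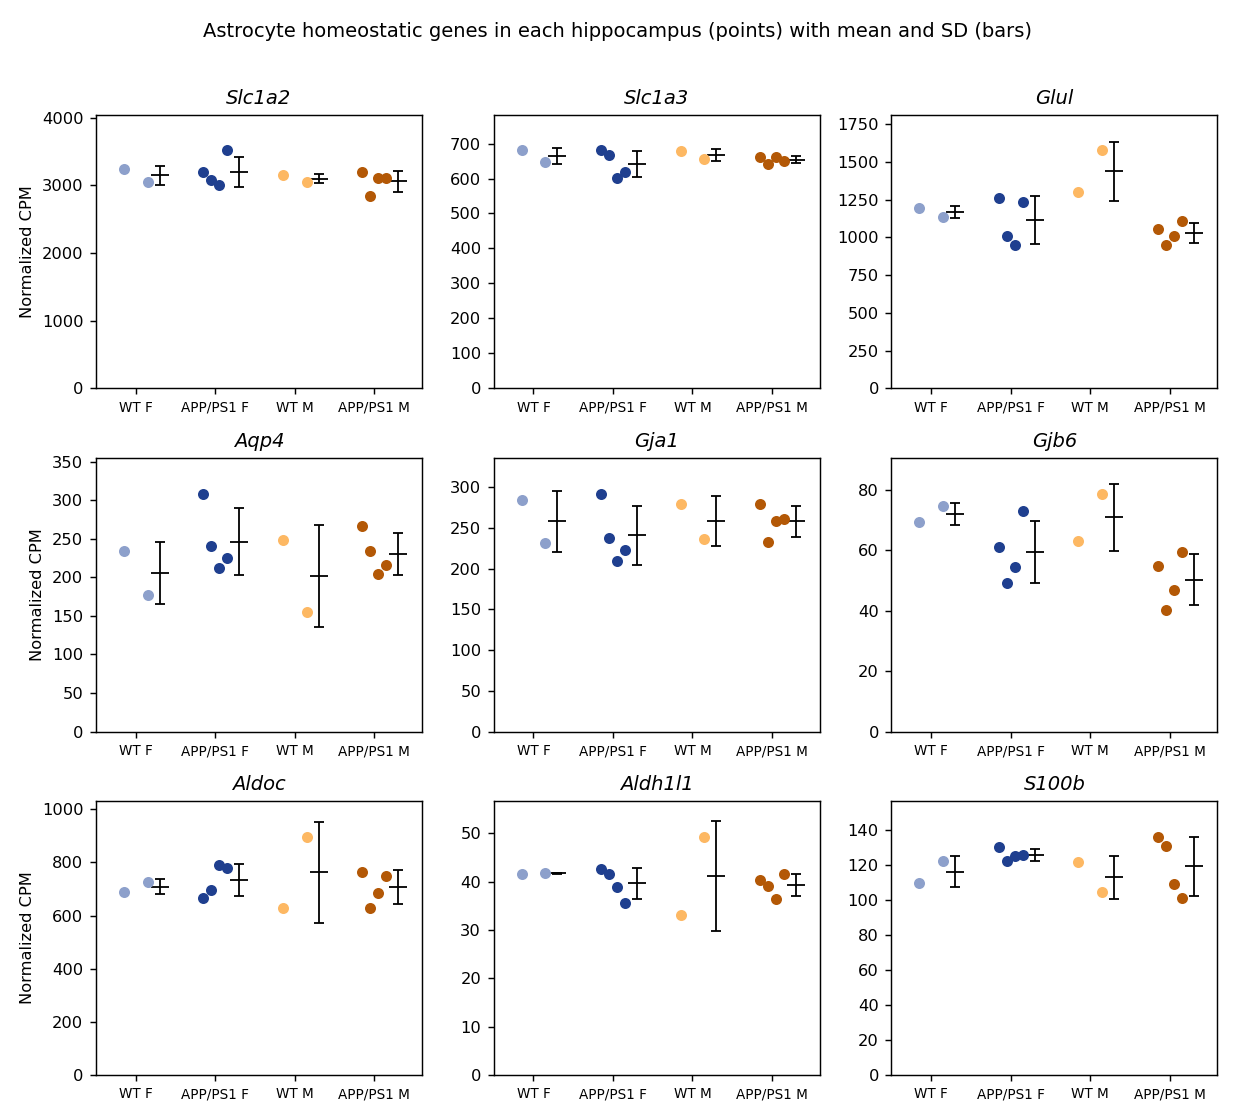
Normalized CPM of each homeostatic gene in every library (points) by genotype and sex (F female, M male), with the group mean and SD as bars, for n = 4 APP/PS1 and n = 2 WT per sex. Axes start at 0, and the males are where the APP/PS1 and WT points of Glul and of Gjb6 do not overlap.

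Slc1a2 (ENSMUSG00000005089, GRCm38 chromosome 2, 102658659 to 102790784, plus strand) encodes GLT-1, the transporter that clears most synaptic glutamate in the forebrain. Its normalized CPM was 3195, 3078, 3005 and 3520 in the APP/PS1 females and 3244 and 3053 in the WT females. It was 3199, 2839, 3110 and 3107 in the APP/PS1 males and 3148 and 3052 in the WT males. The genotypes overlapped in both sexes, and the fourth APP/PS1 female and the second APP/PS1 male were the highest and the lowest of the 12. The averaged log2 fold change was -0.0054 (standard error 0.045, 95% interval -0.10 to 0.092, adjusted p = 0.984), which bounds the level in APP/PS1 between 0.931 and 1.07 times that in WT. The change was -0.0080 in females (interval -0.15 to 0.13) and -0.0029 in males (interval -0.14 to 0.13). Slc1a2 shares 189 exonic bases with the antisense gene Gm13872, which had 278 to 461 counts per library beside 111156 to 154911 for Slc1a2.

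Slc1a3 (ENSMUSG00000005360, chromosome 15, 8634124 to 8710764, minus strand) encodes GLAST, the second astrocytic glutamate transporter, which is also made by neural stem cells of the dentate gyrus. It was at 681, 667, 602 and 618 normalized CPM in the APP/PS1 females and at 680 and 648 in the WT females. The APP/PS1 males had 661, 643, 662 and 651, and the WT males 678 and 655. No member varied less, and the genotypes overlapped in both sexes. Its change averaged over the sexes was -0.032 (standard error 0.042, interval -0.12 to 0.060, adjusted p = 0.873), and those of the sexes were -0.036 in females and -0.027 in males. The fold in APP/PS1 against WT was thus bounded between 0.918 and 1.04.

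Glul (ENSMUSG00000026473, chromosome 1, 153899944 to 153909723, plus strand) encodes glutamine synthetase, which in brain makes glutamine from glutamate and ammonia within astrocytes. Its levels were 1261, 1011, 947 and 1234 normalized CPM in the APP/PS1 females and 1195 and 1138 in the WT females. In males they were 1056, 952, 1009 and 1105 in APP/PS1 and 1298 and 1577 in WT. The females overlapped, with APP/PS1 animals on both sides of the WT animals, while each of the 4 APP/PS1 males lay below both WT males. Such a separation in males was found for 2 of the 9 members (Glul and Gjb6), where 4.34% of all genes tested had it; in females it was found for 0 members against 6.61% of all genes, and across all 8 APP/PS1 and 4 WT libraries for 0 members against 0.136%.

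In males the log2 fold change of Glul was -0.48 (standard error 0.13, 95% interval -0.76 to -0.20), a level of 0.719 times that in WT, with an unadjusted p of 0.00358 and an adjusted p of 0.389 over all genes by edgeR's quasi-likelihood test. In females it was -0.058 (interval -0.35 to 0.23, adjusted p = 0.932), and for both sexes averaged -0.27 (standard error 0.091, interval -0.47 to -0.065, adjusted p = 0.333). The female effect minus the male effect was 0.42 (interval 0.010 to 0.82), with an unadjusted p of 0.0455 and an adjusted p of 0.995. So the change in males did not pass the correction over all genes by the main test, and neither did its difference from the females. The likelihood ratio test, the kind of test the study used, and DESeq2 placed the change in males on the other side of the threshold. In males its adjusted p was 0.0453 by edgeR's likelihood ratio test, which called 1.01% of all genes, and 0.0108 by DESeq2, which called 1.04%, and over all alternatives it lay between 0.0108 and 0.997. For the averaged effect DESeq2 gave an adjusted p of 0.0386 for Glul and called 2.85% of all genes, and the range was 0.0386 to 0.823.

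The second WT male had the highest Glul level of the 12 libraries, and the size of the male change moved with the WT animals. It was -0.33 without the second WT male and -0.61 without the first, with adjusted p-values of 0.997 and 0.187, and in these fits the remaining WT male is assumed to vary like the animals of the other groups. In the 12 fits that each left out 1 library the male change lay between -0.61 and -0.33 and the averaged one between -0.34 and -0.20. Without the 3 libraries rich in choroid plexus transcripts it was -0.43 in males and -0.31 averaged. Glul shares 116 exonic bases with the antisense gene Teddm2, which had 331 to 634 counts beside 37286 to 80037 for Glul.

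Aqp4 (ENSMUSG00000024411, chromosome 18, 15389496 to 15410982, minus strand) encodes the main water channel of the brain, held at high density on astrocyte endfeet. Its normalized CPM was 309, 241, 212 and 225 in the APP/PS1 females and 234 and 177 in the WT females. The APP/PS1 males had 267, 234, 205 and 216, and the WT males 248 and 155. The lower of the WT animals lay below each APP/PS1 animal in both sexes and the higher one lay among them, so the groups overlapped. The averaged log2 fold change was 0.21 (standard error 0.17, interval -0.19 to 0.62, adjusted p = 0.771). It was 0.25 in females and 0.17 in males, with intervals of -0.33 to 0.83 and -0.40 to 0.75. This is the widest interval of the 9 genes, and it allows up to 1.54 times the WT level. The size of the Aqp4 change moved with single WT animals. In males it was -0.13 without the second WT male and 0.57 without the first. In females it was -0.0050 without the second WT female and 0.55 without the first. Without the 3 choroid plexus-rich libraries, of which the first APP/PS1 female held the highest Aqp4 level and the second WT female one of the lowest, the averaged change was 0.065 and the female one -0.090. That fit keeps the first WT female as the only WT animal of her sex. With the replicate number entered as a block, Aqp4 was called in the averaged comparison at a log2 fold change of 0.36 (adjusted p = 0.0756; 1.4% of all genes called), and at 0.39 with the block and no RUV factors (adjusted p = 0.0554; 1.33% of all genes called). Whether animals that share a replicate number form a pair or a batch could not be decided from these data.

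Gja1 (ENSMUSG00000050953, chromosome 10, 56377330 to 56402513, plus strand) encodes connexin 43, the main gap junction protein between astrocytes. Levels in the APP/PS1 females were 292, 238, 210 and 223 normalized CPM, and those in the WT females 284 and 232. Levels in the APP/PS1 males were 280, 233, 259 and 261, and those in the WT males 280 and 237. The groups overlapped in both sexes. The averaged log2 fold change was -0.040 (standard error 0.10, interval -0.27 to 0.19, adjusted p = 0.947), with -0.081 in females and 0.00073 in males. No annotated gene overlaps Gja1.

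Gjb6 (ENSMUSG00000040055, chromosome 14, 57123303 to 57133611, minus strand) encodes connexin 30, the other large astrocytic connexin. Its normalized CPM was 61.2, 49.0, 54.3 and 73.0 in the APP/PS1 females and 69.3 and 74.5 in the WT females. The APP/PS1 males had 54.8, 40.1, 46.9 and 59.3, and the WT males 63.0 and 78.7. The 4 APP/PS1 males lay below both WT males, and in females all but the fourth APP/PS1 animal lay below both WT animals. Gjb6 had the most negative averaged log2 fold change of the members, -0.38 (standard error 0.13, interval -0.69 to -0.078), a level of 0.767 times that in WT. Its unadjusted p was 0.0196 and its adjusted p 0.371. The change was -0.30 in females (interval -0.74 to 0.15, adjusted p = 0.696) and -0.47 in males (standard error 0.19, interval -0.90 to -0.048, unadjusted p = 0.0332, adjusted p = 0.81 by edgeR). The effects in the sexes differed by 0.18 (interval -0.44 to 0.80, adjusted p = 0.995). Gjb6 was called in 1 of the alternative fits of the averaged effect, the one without the fourth APP/PS1 female, the animal with the highest Gjb6 of its group, at a log2 fold change of -0.40 (adjusted p = 0.0611; 2.1% of all genes called). Over all alternatives its averaged adjusted p lay between 0.0611 and 0.874 and its averaged change between -0.49 and -0.30. Without the second WT male the male change was -0.30, and without the second APP/PS1 female the female one was -0.15.

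**Figure D3:**
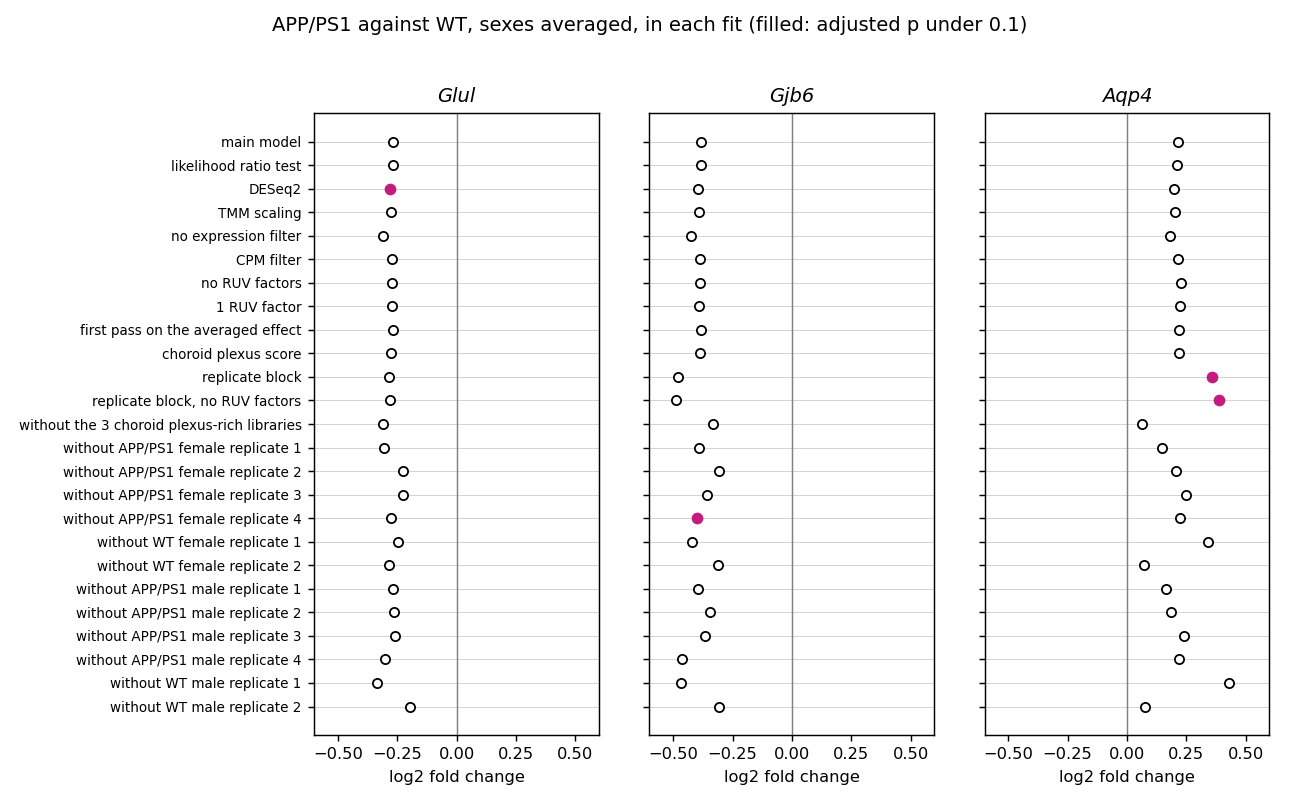
Averaged log2 fold change of Glul, Gjb6 and Aqp4 in APP/PS1 against WT in the main model and under each alternative, with filled points where the adjusted p was under 0.1. Glul and Gjb6 stay below 0 in every fit shown with 1 filled point each, whereas Aqp4 ranges from 0.065 to 0.43 and is filled in both fits with a replicate block.

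Aldoc (ENSMUSG00000017390, chromosome 11, 78322968 to 78327781, plus strand) encodes aldolase C, the glycolytic aldolase of astrocytes. It was at 667, 696, 792 and 780 normalized CPM in the APP/PS1 females and at 688 and 728 in the WT females. It was at 765, 627, 686 and 750 in the APP/PS1 males and at 628 and 896 in the WT males, so the WT males held the highest value of the 12 libraries and one close to the lowest. The averaged log2 fold change was -0.014 (standard error 0.088, interval -0.21 to 0.18, adjusted p = 0.977).

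Aldh1l1 (ENSMUSG00000030088, chromosome 6, 90486427 to 90600203, plus strand) encodes 10-formyltetrahydrofolate dehydrogenase, an enzyme of folate metabolism that is widely used as a pan-astrocyte marker. The APP/PS1 females had 42.6, 41.7, 38.9 and 35.5 normalized CPM, and the WT females 41.6 and 41.8. The APP/PS1 males had 40.4, 39.0, 36.4 and 41.6, and the WT males 33.2 and 49.3. The WT males enclosed all other libraries. Averaged over the sexes, the change was -0.028 (standard error 0.072, interval -0.18 to 0.13, adjusted p = 0.947). It shares 499 exonic bases with the antisense gene Gm15756, which had 4 to 18 counts.

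S100b (ENSMUSG00000033208, chromosome 10, 76253853 to 76261159, plus strand) encodes a calcium-binding protein that astrocytes also secrete, and which some oligodendrocytes make. Its normalized CPM was 130, 122, 125 and 126 in the APP/PS1 females and 110 and 123 in the WT females. It was 136, 131, 109 and 101 in the APP/PS1 males and 122 and 105 in the WT males. The APP/PS1 males spanned the whole range of the 12 libraries. The averaged log2 fold change was 0.067 (standard error 0.061, interval -0.065 to 0.20, adjusted p = 0.8), 0.094 in females and 0.039 in males.

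Sex made no called difference to the members in either genotype. Females against males gave 0 of 9 calls in WT, where 0.0571% of all genes were called, and 0 of 9 in APP/PS1, where 0.0857% were. At an unadjusted p under 0.05 the number was also 0 in both genotypes. The largest female-minus-male changes were those of Glul in WT, at -0.31 (interval -0.65 to 0.033), and of Gjb6 in APP/PS1, at 0.25 (interval -0.10 to 0.60).

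The members did not vary as a block from animal to animal. Of the 36 pairs of members, 22 had a Pearson r above 0 over the 12 libraries (log2 of normalized CPM plus 0.5) and 14 below 0. After adjustment over the 36 pairs 2 passed 0.05 by permutation tests. Slc1a3 and Gja1 had r = 0.866 (permutation p = 9e-05, adjusted p = 0.00324) and Spearman's rho = 0.909 (permutation p = 0.00014, adjusted p = 0.00504). Without the 2 libraries farthest from the median of Slc1a3 their r was 0.796, in the 9 libraries poor in choroid plexus transcripts 0.862, and within the 8 APP/PS1 libraries 0.865. Glul and Gjb6 had r = 0.806 (permutation p = 0.00142, adjusted p = 0.0256) and rho = 0.832 (permutation p = 0.0013, adjusted p = 0.0234). Their r was 0.821 without the 2 libraries farthest from the median of Glul, 0.87 in the 9 choroid plexus-poor libraries and 0.818 within the 8 APP/PS1 libraries. The 4 WT libraries are too few for an r of their own. All these points share their libraries and scaling. For Slc1a2 and Slc1a3, the transporters of the same function, r was 0.0393 (permutation p = 0.896, adjusted p = 0.958) and rho 0.462 (permutation p = 0.134, adjusted p = 0.458), and r was 0.773 without the 2 libraries farthest from the median of Slc1a2, the fourth APP/PS1 female and the second APP/PS1 male.

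**Figure D4:**
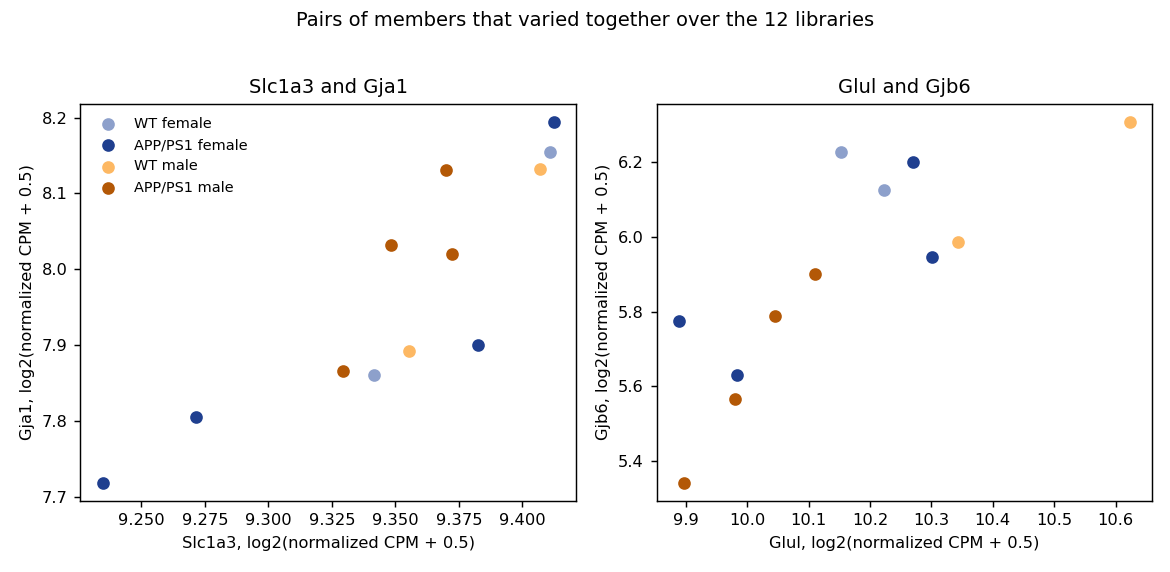
Slc1a3 against Gja1 and Glul against Gjb6 in the 12 libraries, each axis log2(normalized CPM + 0.5), coloured by group. Libraries low in the gene on the horizontal axis were low in the other, with r = 0.866 on the left and 0.806 on the right.

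Single libraries stood at the extremes of several members. The second WT male had the highest level of 4 of the 9 genes (Glul, Gjb6, Aldoc and Aldh1l1) and the lowest level of Aqp4. The first APP/PS1 female had the highest level of 3 (Aqp4, Gja1 and Slc1a3), and the third APP/PS1 female and the second APP/PS1 male each had the lowest level of 3. The mean z-score of the 9 members ran from -0.719 in the second APP/PS1 male to 0.703 in the first APP/PS1 female, both among the choroid plexus-rich libraries, and was -0.0878 in the remaining library of that kind, the second WT female. Choroid plexus-rich libraries thus lay at both ends of this range, and the part of choroid plexus RNA in the members' levels was not tested. The fitted changes, unlike the levels, come from a model with RUV factors. The first of these was -0.471 in the first APP/PS1 female, -0.549 in the second APP/PS1 male and -0.447 in the second WT female. In the other libraries it was 0.0722 to 0.278. The fit without the 3 choroid plexus-rich libraries keeps the first WT female as the only WT animal of her sex. Some averaged log2 fold changes were further from 0 than in the main model. They were -0.15 for Gja1, -0.063 for Slc1a3, -0.013 for Slc1a2, -0.050 for Aldh1l1, -0.31 for Glul and 0.080 for S100b. Those of Gjb6 (-0.33) and Aqp4 (0.065) were closer to 0, and that of Aldoc was 0.054, above 0. The female changes, which rest on that WT animal, were -0.36 for Gja1, -0.19 for Glul, -0.11 for Slc1a3 and -0.057 for Slc1a2. The genes outside the set whose levels followed this mean most closely over the 12 libraries were Mbnl1 (r = 0.95), Zfp933 (r = 0.856), Irf2bp2 (r = 0.799), Lrp4 (r = 0.794) and the mitochondrial tRNA gene mt-Tq (r = 0.79). These r are descriptions of the top of a ranking over all genes tested, and none of these 5 genes was called between the genotypes (adjusted p of 0.809 or above).

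The promoters of Glul and Gjb6 are shown for their sequence. These members were a pair that varied together and had the most negative averaged changes, though neither was called by the main test. The bases run 5′ to 3′ on each gene's strand over the 250 bases before the RefSeq start (GRCm38.p6), for Glul at chr1:153899679-153899928 on the plus strand and for Gjb6 at chr14:57133612-57133861 on the minus strand. Capitals mark matches on either strand to 3 motifs, the CCAAT box, the GC box (letters GGGCGG) and the E-box (letters CANNTG, where N is any base).
Glul: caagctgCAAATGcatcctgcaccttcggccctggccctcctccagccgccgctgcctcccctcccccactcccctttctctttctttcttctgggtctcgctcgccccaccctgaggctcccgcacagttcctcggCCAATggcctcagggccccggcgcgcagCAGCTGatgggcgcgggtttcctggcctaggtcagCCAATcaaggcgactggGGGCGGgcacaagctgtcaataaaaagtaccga
Gjb6: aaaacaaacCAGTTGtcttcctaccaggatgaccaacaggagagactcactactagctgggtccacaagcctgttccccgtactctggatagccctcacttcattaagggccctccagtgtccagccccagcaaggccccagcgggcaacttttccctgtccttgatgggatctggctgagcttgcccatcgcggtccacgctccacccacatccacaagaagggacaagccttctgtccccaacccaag

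The Glul stretch is 64.8% G and C and holds 2 CCAAT boxes, 1 GC box and 2 E-boxes. The Gjb6 stretch is 56.8% G and C and holds 1 E-box and neither of the others. Among 32851 RefSeq promoters of the same length 33.8% held a CCAAT box, 32.7% a GC box and 66.2% an E-box. Of the 8 members with a promoter entry 4 held a CCAAT box, 4 a GC box and 7 an E-box, and 2 (Aldoc and S100b) held TTGGCA, a core motif of the NFI factors of glia, which 12.3% of all promoters held. These are matches of letters, not sites shown to be bound.

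The genes around the members were read from lists written by function. Over all genes tested 1.9% were called in the averaged comparison, 0.771% in females and 0.171% in males, with a median averaged change of 0.0096. At these shares a short list would hold few calls, so 0 calls is not a result about a list. Of 18 other genes of the glutamate and glutamine cycle 16 were tested, and in the averaged comparison 1 was called lower and 0 higher, with a median log2 fold change of -0.032. Slc17a7, the vesicular glutamate transporter of excitatory neurons, had an averaged change of -0.012 (edgeR quasi-likelihood, adjusted p = 0.965). In females and in males 0 genes of this list were called. The averaged count was 1 in 9 alternatives and 0 in 16, among them every fit that left out a single library other than APP/PS1 male 3, APP/PS1 male 4 or WT male 1.

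The partners of Aqp4 and of the connexins held 0 calls. All 16 genes of the potassium, water and endfoot complex list were tested, with a median averaged log2 fold change of 0.0093 and 1 gene at an unadjusted p under 0.05. Atp1b2, which encodes a sodium pump subunit of astrocytes, had 0.048 (interval -0.057 to 0.15). Of 12 other connexins, pannexins and junction partners 10 were tested, with a median of 0.016 and 0 at an unadjusted p under 0.05. Among them the scaffold Tjp1 had -0.037 (interval -0.16 to 0.086; -0.11 without the choroid plexus-rich libraries) and the neuronal pannexin Panx2 0.017 (interval -0.10 to 0.13). DESeq2 and edgeR's likelihood ratio test also called 0 genes of either list in the averaged comparison.

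Around the metabolic members 1 gene was called. The 21 genes of glycolysis, glycogen and lactate were all tested, with a median averaged log2 fold change of 0.022 and 1 gene called higher, Slc16a3, which encodes the lactate transporter MCT4. It was at 4.95 ± 1.10 normalized CPM in APP/PS1 and 2.37 ± 0.434 in WT females (SD, n = 4 and 2), and at 3.52 ± 0.535 and 3.27 ± 0.976 in males. Its averaged change was 0.64 (standard error 0.16, adjusted p = 0.0928), kept in 11 of 25 alternatives with adjusted p-values from 0.0123 to 0.38, and its change in females was 1.12 (adjusted p = 0.0725). The averaged call was lost when APP/PS1 female 2, APP/PS1 female 3, the first WT female, APP/PS1 male 1, APP/PS1 male 3 or either WT male was left out. In females the list held 0 calls without APP/PS1 female 2, APP/PS1 female 3, the first WT female or APP/PS1 male 3, and also with fewer than 2 RUV factors, the choroid plexus score, the replicate block or an FDR of 0.05. Aldoa, the aldolase that most other cells use, had -0.016 (adjusted p = 0.951), and Gapdh 0.039 (adjusted p = 0.92). Of 16 genes of folate and serine metabolism 15 were tested and 0 called, with a median of 0.021. Phgdh and Psat1, enzymes of serine synthesis, had -0.031 and 0.034. Of 10 genes of the S100 family and its partners 8 were tested and 0 called, with a median of 0.063. S100a1 had 0.26 (adjusted p = 0.378) and S100a16 had 0.22 (adjusted p = 0.536), and each was called in 1 alternative, S100a1 without the fourth APP/PS1 male (adjusted p = 0.0423) and S100a16 without the first WT male (adjusted p = 0.085).

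The reactive genes held calls and the wider astrocyte set held none. Over all genes tested 1.9% were called averaged, 0.771% in females and 0.171% in males, so few calls would be found among 25 genes at these shares. All 25 astrocyte identity genes were tested, 0 were called in any of the 3 genotype comparisons, and their median averaged log2 fold change was -0.039. Their summed level was 1534 to 1603 normalized CPM in APP/PS1 and 1598 to 1621 in WT females, which overlapped. In males it was 1516 to 1600 in APP/PS1 and 1611 to 1628 in WT, so each APP/PS1 male lay below both WT males. Among all genes tested 4.34% had such a separation in males, and its cause was not tested. Ptprz1, a receptor phosphatase of astrocytes and their precursors, had 0.031 (interval -0.083 to 0.14), and the receptor Gpr37l1 had -0.0091 (interval -0.11 to 0.096). Of 20 reactive astrocyte genes 16 were tested, and in the averaged comparison 5 rose, 0 fell and 11 did not pass, with a median of 0.23. In females 4 rose, with a median of 0.55, and in males 0 passed, with a median of 0.037; this difference between the sexes was not tested for the list. Gfap, the intermediate filament of reactive astrocytes, averaged 997 ± 121 (SD, n = 4) normalized CPM among APP/PS1 and 419 ± 8.12 (SD, n = 2) among WT females. Among males the means were 745 ± 174 (SD, n = 4) and 396 ± 4.54 (SD, n = 2). Averaged over the sexes this was a change of 1.06 (standard error 0.14, adjusted p = 0.0122 by edgeR). The others were the complement gene C4b at 1.32 (adjusted p = 0.0132), Aspg, an asparaginase, at 1.05 (adjusted p = 0.00685), Ggta1, a galactosyltransferase, at 0.76 (adjusted p = 0.0167) and Gbp2, an interferon-induced GTPase named after its values were seen, at 0.80 (adjusted p = 0.0571). The averaged count was 3 without either of the WT females. The female count was 1 without the second APP/PS1 female or the second WT female, 0 without the first WT female and 2 without the choroid plexus-rich libraries, but 7 by the likelihood ratio test and 8 by DESeq2. The male count was 3 by each of these other tests and 1 without the third APP/PS1 female or the third APP/PS1 male. Over all 14008 genes the likelihood ratio test called 288 and DESeq2 296 in females, where the main test called 108. In males they called 142 and 146, where the main test called 24. The number called over all genes also differed between the fits that left out libraries. Gfap and C4b lost the averaged call without the first WT female (adjusted p = 0.11 and 0.14), and C4b also without the second WT female or the second WT male. Ggta1 lost it without the choroid plexus-rich libraries, at 0.68 (adjusted p = 0.107).

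**Figure D5:**
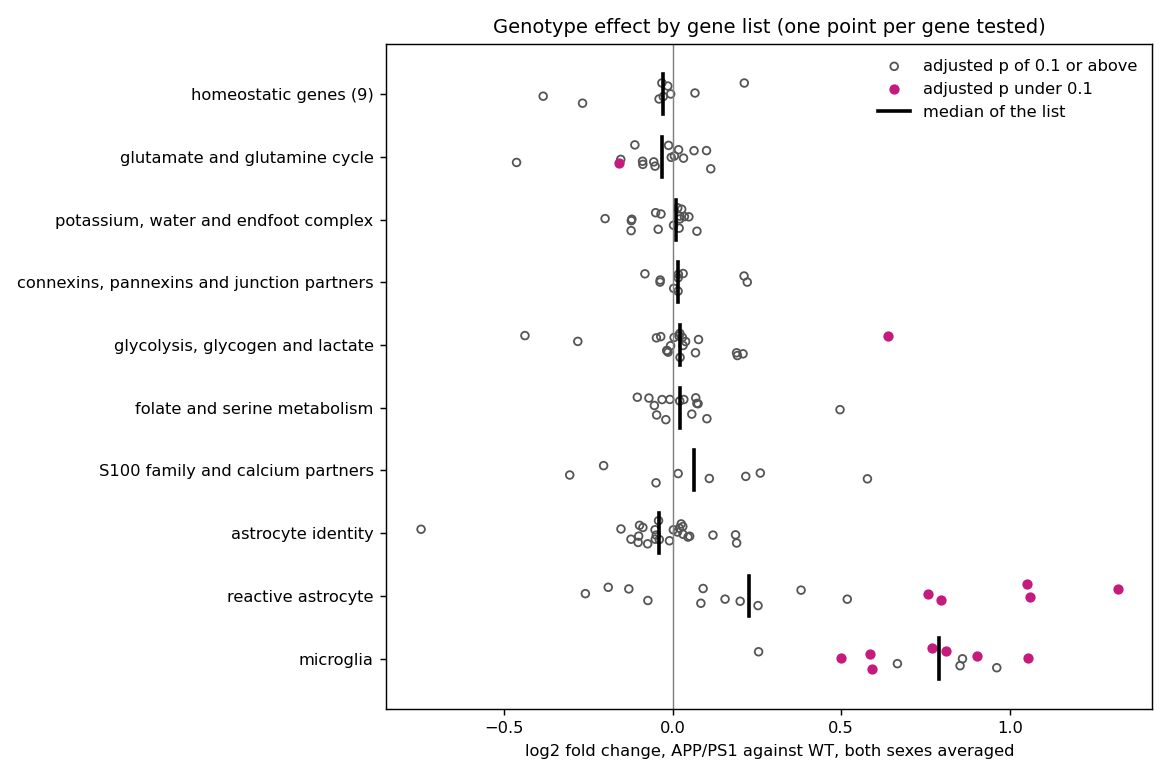
Averaged log2 fold change in APP/PS1 against WT of each tested gene, by list, with filled points for an adjusted p under 0.1 and a bar at the list's median. The 9 homeostatic genes centre on -0.028 with no filled point, while 5 reactive astrocyte genes and 7 microglial markers are filled to the right of 0.

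Among the markers of other cell types, the averaged comparison held calls for microglia, where 1.9% of all genes tested were called. Of 12 microglial markers 7 rose in the averaged comparison and all 12 had an unadjusted p under 0.05, with a median log2 fold change of 0.79. Within females 0 of them were called, against 0.771% of all genes, and 11 had an unadjusted p under 0.05. Within males 0 were called, against 0.171%, and 7 had such a p. The summed level of the microglial markers was 617 to 1004 normalized CPM in APP/PS1 and 412 to 545 in WT libraries. The part of microglial RNA in the members' levels was not tested. Neuronal, oligodendrocyte, oligodendrocyte precursor, vascular, choroid plexus, ependymal, meningeal and stem cell markers held 0 averaged calls, with list medians between -0.31 for ependymal and 0.17 for stem cell markers. In females 1 ependymal marker was called higher (Sec14l3, at 1.52) and 1 meningeal and fibroblast marker lower (Igfbp2, at -0.66), both named after their values were seen. Choroid plexus markers held 0 calls in either sex. Their median was -0.47 in females, with 5 of 15 at an unadjusted p under 0.05, and 0.43 in males, with 1 of 15. Each group but WT males held a choroid plexus-rich library. The markers' summed level reached 4324 normalized CPM among WT females, 4116 and 7306 among APP/PS1 females and males, but 37.4 among WT males. Summed meningeal and fibroblast markers spanned 85.8 to 224 in WT and 92.3 to 160 in APP/PS1 females. The part of these libraries in the changes by sex, that of Igfbp2 included, was not tested. The part of the cells of these lists in the members' levels was not tested. Summed neuronal markers lay at 11200 to 12330 normalized CPM in APP/PS1 and 11540 to 12500 in WT libraries. The summed level of the 9 members was 5986 to 6834 normalized CPM in APP/PS1 and 6215 to 6547 in WT females, so the females overlapped. In males it was 5738 to 6460 in APP/PS1 and 6498 to 6805 in WT, so each APP/PS1 male lay below both WT males. Among all genes tested 4.34% had such a separation in males, and its cause was not tested.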

How the data were processed

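Per the labels and the methods of the study, reads of directional polyadenylated RNA libraries were trimmed with Trimmomatic, aligned to GRCm38 with STAR and counted per gene with HTSeq. The authors deposited raw counts per Ensembl gene; tool versions, strand and multi-mapping options are not given in the sources used here. Of 55573 identifiers 55480 matched GENCODE M21, which gave symbols and positions. Total counts were 36714316 to 50643565 per library. Counting error depends on the count of each gene, and it was not compared with the spread between animals.

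The 14008 genes at or above a log2 CPM of 1 in 3 or more libraries were tested with edgeR 4.0.16 (R 4.3.3; quasi-likelihood F test) in 1 model of 4 groups, with upper-quartile scaling and 2 RUV factors (RUVg, re-implemented; its control genes leave out the 5000 that a first pass over the groups ranked highest). P-values are two-sided and Benjamini-Hochberg adjusted over all genes tested, and an FDR under 0.1 was called. Confidence intervals of 95% use the fit's degrees of freedom. Alternatives were DESeq2 1.42.0, the likelihood ratio test of edgeR, scaling by TMM, other filters, other RUV settings, a choroid plexus score, a replicate block, an FDR of 0.05 and leaving out libraries. Named were all members and, from each functional list, up to 4 called genes per direction or else the 2 most abundant, plus the 5 genes most like the members' mean z-score; some genes that the rule names, a called one among them, are not reported here. Members and lists were chosen with earlier results of these data known. The procedure was tested on simulated data.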

Additional observations from a re-analysis of the deposited data

How the results depend on the processing

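The number of members called was 0 in females, for the interaction and for both sex comparisons in every fit run. In the averaged comparison it was 1 with DESeq2 (Glul), 1 with the replicate block and 1 with the block and no RUV factors (Aqp4), and 0 to 1 with single libraries left out (Gjb6, without APP/PS1 female 4). In males it was 1 with the likelihood ratio test and 1 with DESeq2, both times Glul. The median member change in females was -0.090 without the 3 choroid plexus-rich libraries, a fit in which the first WT female is the only WT female.

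Replicate numbers are shared by the groups. Of 14 same-numbered pairs 4 had deviations correlated above 0.1 (r from -0.643 to 0.697). Pairs with a WT animal cannot decide whether the numbers pair the animals, because deviations of the 2 animals in a WT arm mirror each other. The first APP/PS1 female had r = -0.643 with the first WT female and 0.643 with the second. The same-numbered APP/PS1 females and males had r of -0.42, -0.437, 0.241 and -0.16 in order of number. These are too few pairs to decide it. The replicate block gave 196 called genes in place of 266, and it ended the averaged calls of Gfap (adjusted p = 0.102) and C4b (0.112); without RUV factors it ended those of C4b (0.138) and Aspg (0.124), with 3 reactive genes called in either fit. Changes of single genes close to 0 crossed it, and the cause was not tested. Under the replicate block the averaged change was 0.0031 for Slc1a3, 0.023 for Gja1, 0.022 for Aldh1l1, -0.093 for Gapdh, 0.039 for Phgdh and 0.044 for Gpr37l1, and that in males 0.013 for Slc1a3 and 0.015 for Aldh1l1. Under the block without RUV factors it was 0.015 for Gja1, -0.048 for Panx2, 0.028 for Phgdh and 0.011 for Gpr37l1 averaged, -0.012 for Aldoc and -0.022 for Aldh1l1 in females, and 0.0076 for Slc1a3 in males.

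Slc1a2 took averaged values of 0.0032 without RUV factors, 0.0033 with 1 RUV factor and 0.0052 with the choroid plexus score. In females these were 0.023, 0.0064 and 0.0061, and 0.023 with each sex alone. In males Slc1a2 was at 0.00026 with 1 RUV factor, 0.0092 with the first pass on the averaged effect, 0.0043 with the choroid plexus score and 0.031 without the 3 choroid plexus-rich libraries. Without those 3 libraries Aldoc averaged 0.054, Aldoa 0.017, and Aqp4 -0.090 and Aldh1l1 -0.055 in females. Aldh1l1 in females was -0.017 with DESeq2, -0.010 with TMM scaling, -0.038 without an expression filter, -0.0048 with the CPM filter, -0.073 without RUV factors or with each sex alone, -0.062 with 1 RUV factor and -0.062 with the choroid plexus score. Gja1 in males was -0.0078 with DESeq2, -0.0066 with TMM scaling, -0.026 without an expression filter, -0.0018 with the CPM filter, -0.0016 without RUV factors or with each sex alone, -0.0021 with 1 RUV factor and -0.0046 with the first pass on the averaged effect. Panx2 was -0.0023 without an expression filter and -0.0016 with 1 RUV factor.

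With single libraries left out, averaged changes ran from -0.019 to 0.012 for Slc1a2, -0.13 to 0.045 for Gja1, -0.15 to 0.10 for Aldoc, -0.16 to 0.099 for Aldh1l1, -0.037 to 0.023 for Slc17a7, -0.0046 to 0.090 for Atp1b2, -0.11 to 0.028 for Tjp1, -0.035 to 0.060 for Panx2, -0.052 to 0.012 for Aldoa, -0.055 to 0.17 for Gapdh, -0.098 to 0.025 for Phgdh, -0.036 to 0.13 for Ptprz1 and -0.035 to 0.020 for Gpr37l1. In females they ran from -0.033 to 0.021 for Slc1a2, -0.085 to 0.016 for Slc1a3, -0.17 to 0.017 for Glul, -0.0050 to 0.55 for Aqp4, -0.25 to 0.12 for Gja1, -0.045 to 0.15 for Aldoc and -0.031 to 0.028 for Aldh1l1. In males they ran from -0.020 to 0.027 for Slc1a2, -0.056 to 0.012 for Slc1a3, -0.13 to 0.57 for Aqp4, -0.12 to 0.15 for Gja1, -0.32 to 0.20 for Aldoc, -0.31 to 0.23 for Aldh1l1 and -0.060 to 0.14 for S100b. Each WT arm held 2 animals, and no fit at lower depth was run.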
